A study of Mus musculus with 12 samples.

Results

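Calr and 9 other chaperone genes of the endoplasmic reticulum (ER) were followed in mouse sciatic nerve and captured motoneurons, with intact Gdap1 or with its exon 5 deleted. Calr was chosen from the genes with the smallest p in the comparison of knockout with wild type motoneurons, and Canx, Hspa5, Hsp90b1, Pdia3, Pdia4, Pdia6, Herpud1, Dnajb9 and Sdf2l1 were grouped with it by function. That comparison is therefore given here for these 10 genes as a description, with no test. The members are the probe sets whose platform annotation names exactly 1 gene and names one of these. They came to 21 probe sets for 10 of 10 genes, out of 45037 probe sets tested and 18193 genes with such a probe set.

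The study asked which transcripts differ when Gdap1, a gene for a protein of the outer mitochondrial membrane, is disrupted. The data are 12 Affymetrix 3' arrays in 4 groups of 3. These were whole sciatic nerve from wild type mice, whole sciatic nerve from Gdap1 knock-out mice, laser-captured motoneurons from wild type mice and laser-captured motoneurons from Gdap1 knock-out mice. All mice were untreated and 2 months old, and each array is labelled as a numbered biological replicate. Whether nerve and motoneuron arrays share mice is not stated. The knock-out removes exon 5, and the Gdap1 probe sets lie in exons 4 and 6, so they check nothing about the deletion. The design text speaks of RNA from 5 mice, from which samples were picked for enough RNA of good quality. Nerve and motoneuron RNA were purified with different column kits, so tissue and kit cannot be told apart. Each level is bulk RNA, in which fewer cells of a type and less RNA per cell cannot be told apart.

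ER chaperones fold proteins that enter the secretory pathway. Calreticulin and calnexin bind newly made glycoproteins through their sugars and, with the thiol isomerase Pdia3, hold them until they are folded, while BiP (Hspa5) and Grp94 (Hsp90b1) bind exposed unfolded stretches. When unfolded protein accumulates, the sensors Ire1, Perk and Atf6 start the unfolded protein response, which raises transcription of many of these genes. The spliced form of Xbp1 and the cleaved form of Atf6 act through short promoter sequences named ER stress response elements.

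Those elements are shown first because several members share them in sequence. The genes were grouped by a function that is known to go with such elements, so sharing them is a description. All 10 members had a promoter in the RefSeq table of build GRCm38.p6, which gives 250 bases before and 50 after the annotated start. Both strands were searched for exact matches to 3 motifs. The motifs were ERSE (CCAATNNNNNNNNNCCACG), ERSE-II (ATTGGNCCACG) and the UPRE (TGACGTGG). No promoter of the table held both ERSE and ERSE-II. ERSE was present in 39 of 32851 promoters, or 0.119%, and in 5 of the 10 members. ERSE-II was present in 12 promoters, or 0.0365%, of which Herpud1 was one. The UPRE was present in 222 promoters, or 0.676%, and in 0 of the 10 members, which says only that these letters are not in these windows. The ERSE copies are written in the direction of the motif, with the fixed ends in capitals. The copy in Calr (chr8:84847075-84847093) lies on the strand opposite to the gene and reaches 162 bases before the start.
Calr: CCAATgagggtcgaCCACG
Canx: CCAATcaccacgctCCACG
Hspa5: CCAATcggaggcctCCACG
Hsp90b1, farther from the start: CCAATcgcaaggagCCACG
Hsp90b1, nearer to the start: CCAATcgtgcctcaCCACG
Pdia6: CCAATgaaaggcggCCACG
The copies start 145 bases before the start of Canx (chr11:50325800-50325818), 65 before that of Hspa5 (chr2:34772025-34772043) and 98 before that of Pdia6 (chr12:17266491-17266509). Hsp90b1 had 2 copies, at 212 bases (chr10:86705638-86705656) and 107 bases (chr10:86705533-86705551) before its start, the nearer one on the opposite strand. The 9 bases between the fixed ends differed among all 6 copies.

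The 250 bases before the start are printed for 4 members whose motoneuron values differ in the ways described further on. They are Calr (chr8:84846932-84847181, minus strand), Hspa5 (chr2:34771840-34772089, plus strand), Hsp90b1 (chr10:86705445-86705694, minus strand) and Herpud1 (chr8:94386179-94386428, plus strand), each read 5′ to 3′ along the gene, with every exact ERSE or ERSE-II match in capitals.
Calr: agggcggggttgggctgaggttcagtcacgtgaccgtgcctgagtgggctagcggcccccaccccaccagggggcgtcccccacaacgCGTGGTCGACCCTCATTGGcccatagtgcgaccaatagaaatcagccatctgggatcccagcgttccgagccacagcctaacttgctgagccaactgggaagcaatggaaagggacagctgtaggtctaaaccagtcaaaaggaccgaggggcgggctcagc
Hspa5: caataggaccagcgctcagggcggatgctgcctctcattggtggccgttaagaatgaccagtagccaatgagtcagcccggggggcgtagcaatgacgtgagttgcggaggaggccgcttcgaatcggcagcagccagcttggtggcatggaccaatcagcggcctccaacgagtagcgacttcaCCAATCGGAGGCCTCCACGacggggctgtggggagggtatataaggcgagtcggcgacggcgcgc
Hsp90b1: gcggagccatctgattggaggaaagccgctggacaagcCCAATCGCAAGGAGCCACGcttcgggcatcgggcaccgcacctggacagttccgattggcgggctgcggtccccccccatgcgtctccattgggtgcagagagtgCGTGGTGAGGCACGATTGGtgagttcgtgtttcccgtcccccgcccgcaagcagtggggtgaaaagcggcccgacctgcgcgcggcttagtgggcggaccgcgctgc
Herpud1: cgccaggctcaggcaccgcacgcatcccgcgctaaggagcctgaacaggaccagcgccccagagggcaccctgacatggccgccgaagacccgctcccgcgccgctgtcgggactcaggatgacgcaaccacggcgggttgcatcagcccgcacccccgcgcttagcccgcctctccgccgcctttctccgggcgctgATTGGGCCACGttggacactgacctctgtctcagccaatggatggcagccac
The Herpud1 element, ATTGGgCCACG, starts 52 bases before the start (chr8:94386377-94386387). Pdia3, Pdia4, Dnajb9 and Sdf2l1 had no exact match to any of the 3 motifs in their windows. A match is a description of the letters and was not read as a binding site.

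**Figure D1:**
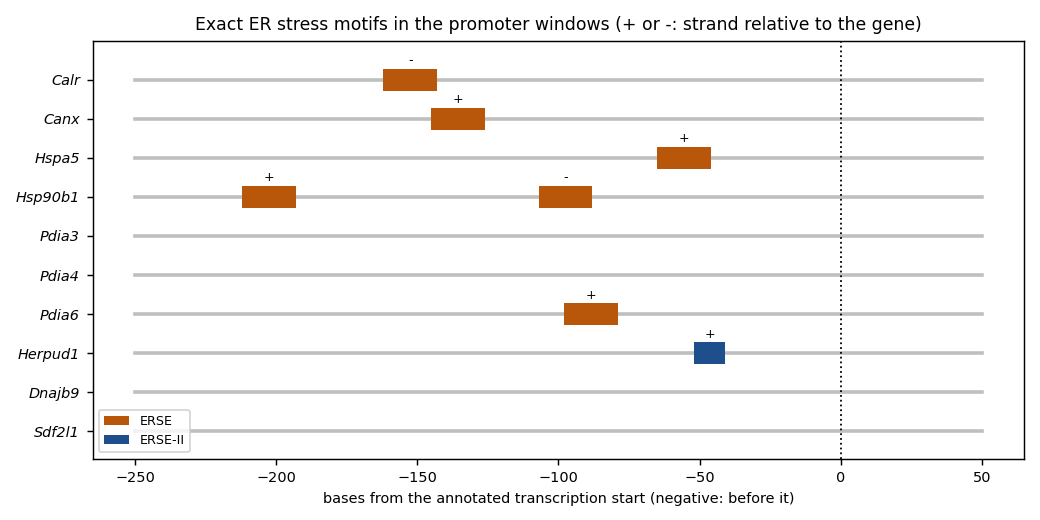
Position of exact ERSE (orange) and ERSE-II (blue) matches in the 300-base promoter window of each of the 10 genes, in bases from the annotated start, with the strand of each match relative to the gene above it. Calr, Canx, Hspa5 and Pdia6 have 1 ERSE each, Hsp90b1 has 2, Herpud1 has 1 ERSE-II, and the windows of Pdia3, Pdia4, Dnajb9 and Sdf2l1 are empty.

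The labelled tissues were checked against marker genes. The mean deposited log2 level of 9 measured motoneuron markers, such as Slc18a3, Isl1 and Mnx1, was between 11.50 and 11.81 in the motoneuron arrays and between 6.77 and 7.26 in the nerve arrays. Chat, which defines cholinergic neurons, was an exception, with means of 4.83 in wild type and 4.58 in knockout motoneurons against 5.12 and 5.17 in nerve. The 8 measured Schwann cell and myelin markers averaged 13.88 to 14.15 in nerve and 8.05 to 8.41 in motoneurons. Astrocyte markers averaged 10.56 to 11.25 in motoneurons and 9.90 to 10.58 in nerve, and oligodendrocyte markers 10.62 to 11.26 and 8.11 to 8.51. Both lists were mixed. In wild type 4 of 8 astrocyte markers read higher in motoneurons than in nerve and 4 lower. Of 7 measured oligodendrocyte markers 5 read higher and 2 lower. The part of these other cell types in the values of the 10 genes was not tested. Median levels of the arrays were 6.54 to 6.59 in motoneurons and 8.29 to 8.40 in nerve. Wild type motoneuron replicate 3 stood apart: its mean correlation over all probe sets was 0.9867 with its own group and 0.9890 with the knockout motoneuron arrays. Wild type nerve replicate 2 had the same pattern, at 0.9850 with its own group and 0.9905 with knockout nerve, as had replicate 1 by a smaller gap (0.9885 and 0.9899). The motoneuron differences of the members are given with and without motoneuron replicate 3.

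In knockout motoneurons Calr, Canx, Hspa5, Dnajb9 and, by a small margin, Pdia3 read lower than in wild type by their brightest probe set, with no overlap between the 3 knockout and 3 wild type arrays, and Sdf2l1, Pdia6 and Herpud1 showed no such separation. Hsp90b1 differed in opposite directions by its 2 probe sets. In nerve no probe set of the 10 genes passed the test between the genotypes, with differences from -0.38 to 0.16. The values follow by role, on the deposited log2 scale, on which levels of different probe sets are not comparable.

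Calr encodes calreticulin, the soluble lectin chaperone and a main calcium-binding protein of the ER lumen (Entrez gene 12317, chromosome 8). By probe set 1433806_x_at it read 13.81, 13.77 and 13.77 in wild type motoneurons and 13.52, 13.44 and 13.42 in knockout motoneurons. In nerve this probe set read 14.15, 14.25 and 14.26 in wild type and 14.09, 14.29 and 14.27 in knockout. The motoneuron groups were apart by more than the range within either, while the nerve groups overlapped along nearly their whole range. By 1456170_x_at the motoneuron values were 13.75, 13.78 and 13.77 in wild type and 13.48, 13.45 and 13.44 in knockout. By 1417606_a_at they were 13.03, 13.28 and 13.23 in wild type and 12.50, 12.44 and 12.52 in knockout. All 3 probe sets thus had every knockout array below every wild type array. The differences, knockout minus wild type, were -0.33 (SE 0.047), -0.31 (SE 0.042) and -0.69 (SE 0.077), that is 1.25-fold, 1.24-fold and 1.62-fold lower. The third probe set gave a larger log2 difference than the other 2, so the size of the change depends on the probe set. Without wild type replicate 3 the differences were -0.33, -0.31 and -0.67. In nerve they were -0.0015 (SE 0.069), 0.011 (SE 0.066) and -0.022 (SE 0.16).

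Canx encodes calnexin, the membrane-bound partner of calreticulin (Entrez gene 12330, chromosome 11). By 1415692_s_at it read 13.17, 13.30 and 13.17 in wild type motoneurons and 13.09, 12.92 and 13.07 in knockout motoneurons, a difference of -0.19 (SE 0.069) and of -0.21 without wild type replicate 3. The highest knockout array lay just below the lowest wild type arrays. The other probe sets overlapped, with -0.20 (SE 0.21) by 1422845_at and 0.0089 (SE 0.10) by 1428935_at, or -0.23 and 0.018 without that array. In nerve 1415692_s_at read 13.79, 13.79 and 13.87 in wild type and 13.73, 13.82 and 13.86 in knockout, which overlapped.

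**Figure D2:**
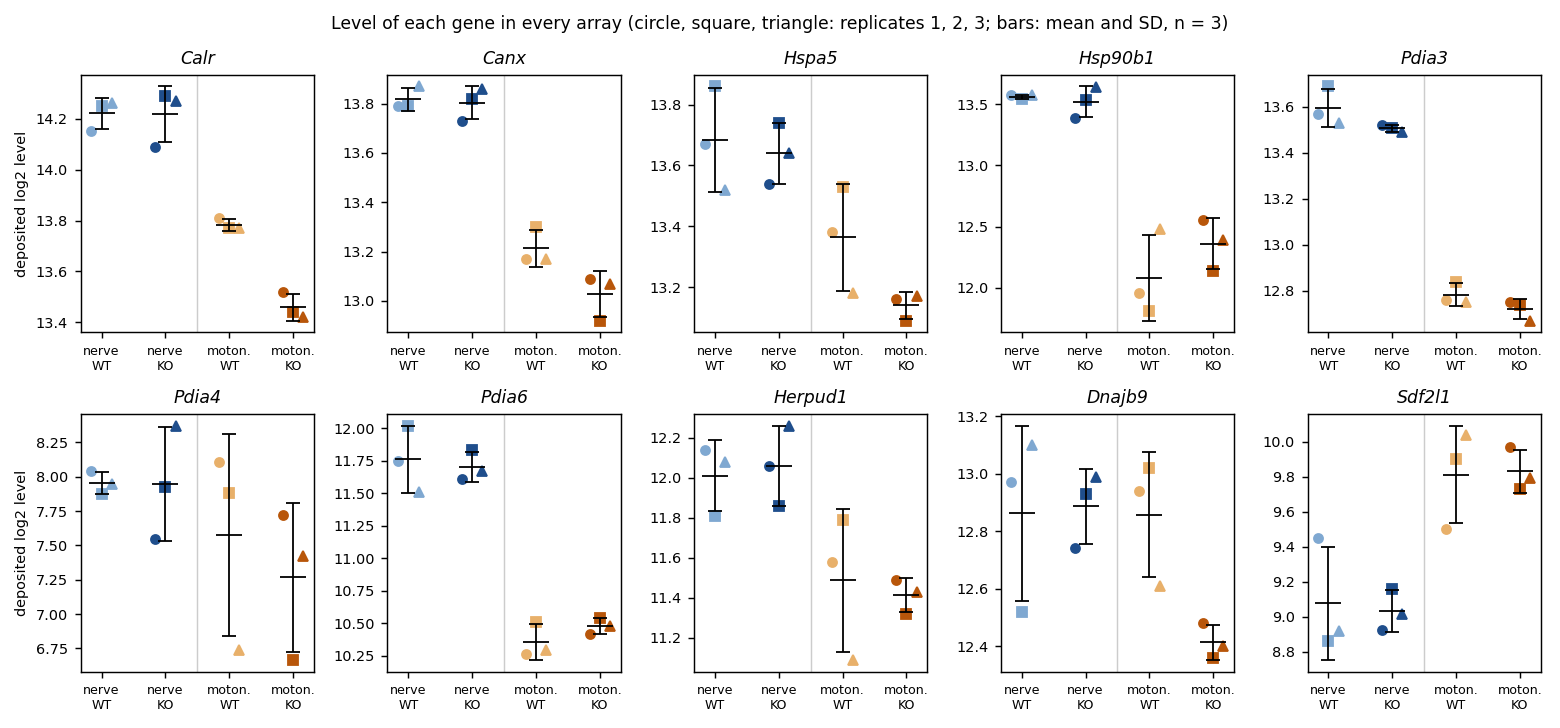
Deposited log2 level of the brightest probe set of each of the 10 genes in every array, with nerve in blue and motoneurons in orange, wild type pale and knockout dark, and the mean and SD of 3 arrays as bars. Axes differ between genes. Calr is at 13.77 to 13.81 in wild type and 13.42 to 13.52 in knockout motoneurons with overlapping nerve groups, and levels across the tissues depend on their separate scaling.

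Hspa5 encodes BiP, the Hsp70 of the ER lumen (Entrez gene 14828, chromosome 2). By 1416064_a_at it read 13.38, 13.53 and 13.18 in wild type motoneurons and 13.16, 13.09 and 13.17 in knockout motoneurons. Wild type replicate 3, the lowest of its group, lay just above the highest knockout array, so the separation is narrow. The difference was -0.22 (SE 0.088), and -0.31 without that array. By 1427464_s_at it was -0.13 (SE 0.054) and by the dimmer 1447824_x_at -0.62 (SE 0.19), both without overlap, and they were -0.16 and -0.62 without that array. In nerve 1416064_a_at read 13.67, 13.86 and 13.52 in wild type and 13.54, 13.74 and 13.64 in knockout, which overlapped.

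Hsp90b1 encodes Grp94, the Hsp90 of the ER (Entrez gene 22027, chromosome 10), and its probe sets disagreed. By 1415889_a_at it read 12.60, 12.78 and 11.91 in wild type motoneurons and 11.80, 11.27 and 11.50 in knockout motoneurons, a difference of -0.91 (SE 0.23). By 1438040_a_at it read 11.96, 11.81 and 12.48 in wild type and 12.55, 12.14 and 12.39 in knockout, a difference of 0.28 (SE 0.18). The first probe set had no overlap and was lower in knockout, and the second overlapped and was higher. In both, wild type replicate 3 was the array of its group nearest to the knockout values. Without it the differences were -1.17 and 0.47, so leaving it out moved the probe sets further apart. Reported as Hsp90b1, the direction is therefore uncertain, and which transcripts each probe set reads was not analysed here. In nerve 1415889_a_at read 12.62, 12.91 and 12.77 in wild type and 12.16, 12.52 and 12.64 in knockout, a difference of -0.33 (SE 0.14, unadjusted p = 0.0532 and adjusted p = 1 by limma), the lowest unadjusted p among the members in nerve. The other probe set differed there by -0.040 (SE 0.075).

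**Figure D3:**
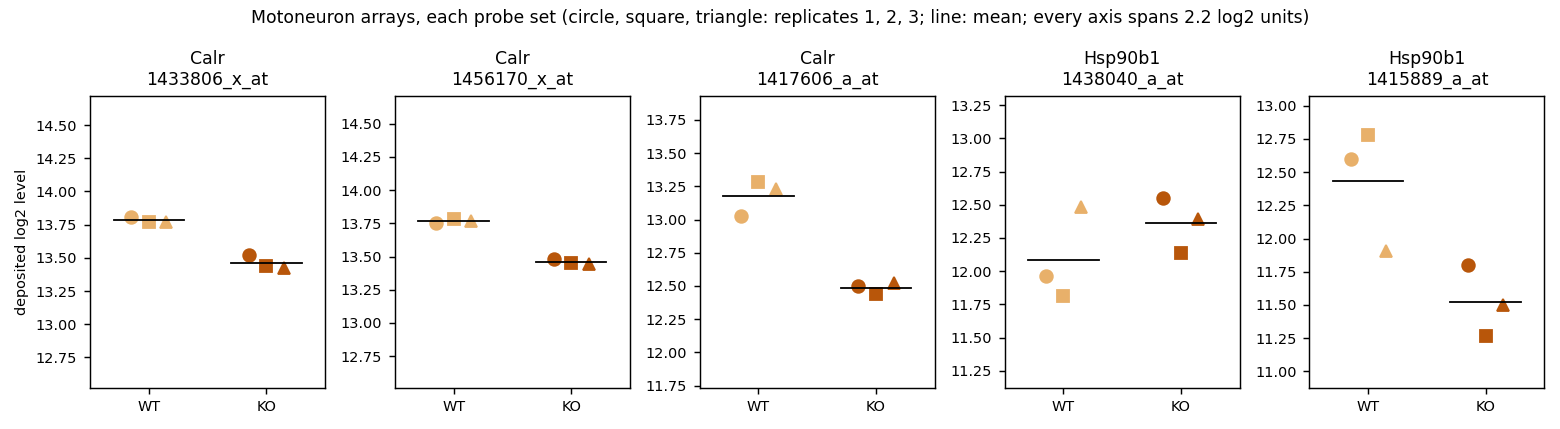
Deposited log2 level in the 6 motoneuron arrays for each probe set of Calr and Hsp90b1, with markers for replicates 1, 2 and 3, a line at the mean of each group and the same span on every axis. All 3 Calr probe sets are lower in every knockout array, while the 2 Hsp90b1 probe sets differ in direction (0.28 and -0.91) and wild type replicate 3 (triangle) lies near the knockout arrays in both.

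Dnajb9, or ERdj4, is a J-domain cochaperone of BiP and a known target of the unfolded protein response (Entrez gene 27362, chromosome 12). Its 1 probe set, 1417191_at, read 12.94, 13.02 and 12.61 in wild type motoneurons and 12.48, 12.36 and 12.40 in knockout motoneurons, a difference of -0.44 (SE 0.11), or 1.36-fold lower. The groups did not overlap, and without wild type replicate 3 the difference was -0.57. In nerve it read 12.97, 12.52 and 13.10 in wild type and 12.74, 12.93 and 12.99 in knockout, within the same range. Sdf2l1, a partner of ERdj3 in the BiP cycle (Entrez gene 64136, chromosome 16), read 9.50, 9.90 and 10.04 in wild type motoneurons and 9.97, 9.73 and 9.80 in knockout motoneurons. Its groups overlapped, with a difference of 0.019 (SE 0.18), and of 0.13 without wild type replicate 3.

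The protein disulfide isomerases form and reshuffle disulfide bonds. Pdia3, or ERp57, is the one that works with calreticulin and calnexin (Entrez gene 14827, chromosome 2). By 1423423_at it read 12.76, 12.84 and 12.75 in wild type motoneurons and 12.75, 12.74 and 12.67 in knockout motoneurons. The groups were barely apart, and the difference of -0.066 (SE 0.059) was about its own standard error and was -0.081 without wild type replicate 3. By 1445330_at the groups overlapped, with a difference of -0.13 (SE 0.14), and of -0.022 without that array. Pdia6 (Entrez gene 71853, chromosome 12) read 10.26, 10.51 and 10.29 in wild type motoneurons and 10.42, 10.54 and 10.48 in knockout motoneurons by 1423648_at, a difference of 0.13 (SE 0.12) with overlap, and of 0.095 without wild type replicate 3. By 1430983_at the difference was 0.082 (SE 0.27), also with overlap, and it turned to -0.15 without that array. Pdia4 (Entrez gene 12304, chromosome 6) was the most variable member. By 1416497_at it read 8.10, 7.88 and 6.74 in wild type motoneurons and 7.72, 6.67 and 7.42 in knockout motoneurons, a difference of -0.31 (SE 0.42) that became -0.73 without wild type replicate 3. By the dim 1450620_at the groups overlapped, with a difference of -0.025 (SE 0.18) that turned to 0.093 without that array.

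Herpud1 is a membrane protein that recruits the ubiquitin ligase of ER-associated degradation (Entrez gene 64209, chromosome 8). By 1448185_at it read 11.58, 11.79 and 11.09 in wild type motoneurons and 11.49, 11.32 and 11.43 in knockout motoneurons. Wild type replicate 3 was the lowest of the 6, so the groups overlapped, and the difference was -0.073 (SE 0.17) with it and -0.27 without it. By 1435626_a_at the difference was -0.19 (SE 0.22), and -0.39 without that array.

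Over all 21 probe sets, 10 had every knockout motoneuron array below every wild type array and 0 had the reverse. Among all probe sets 9.77% were separated with knockout lower and 12.7% with knockout higher. By brightest probe set 5 of the 10 genes were lower, namely Calr, Canx, Hspa5, Pdia3 and Dnajb9, where 11.9% of all genes were separated with knockout lower and 13.9% with knockout higher. Since Calr was picked from this comparison, nothing is read from these counts. The median difference was -0.19 over the 21 probe sets and 0.039 over all probe sets. Limma called 0 of all 45037 probe sets in this comparison, with 7665 at an unadjusted p under 0.05. Without wild type replicate 3, 13 of the 21 were separated with knockout lower and 1, Hsp90b1 1438040_a_at, with knockout higher, where 18.3% and 23.1% of all probe sets were separated in each direction. Limma then called 4646 of all probe sets.

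Several array measures moved with the genotype in motoneurons. The 18S ribosomal RNA control read 13.94, 13.77 and 14.64 in wild type and 14.66 to 14.67 in knockout, so wild type replicate 3 again lay by the knockout arrays. The hybridization control bioB read 11.06 to 11.27 in wild type and 10.68 to 10.75 in knockout motoneurons. In nerve it read 11.45 to 11.72 in wild type and 10.62 to 10.73 in knockout. The excess of 3' over 5' actin signal was 1.62 to 1.97 in wild type and 1.50 to 1.68 in knockout motoneurons. Xist read 9.90 to 10.38 in wild type motoneurons and 5.18 in knockout replicate 2 against 9.37 and 9.71 in the other knockout arrays. In nerve Xist varied within both groups, at 5.12, 12.49 and 4.49 in wild type and 6.06, 4.99 and 12.54 in knockout. The 8 endothelial and mural markers averaged 7.06 to 7.20 in wild type and 6.67 to 6.89 in knockout motoneurons. On average 8 of 8 were lower, 2 of them without overlap. Astrocyte markers averaged 10.91 to 11.25 and 10.56 to 10.92, with 4 of 8 lower without overlap. The motoneuron markers averaged 11.58 to 11.81 and 11.50 to 11.77, with 3 of 9 lower without overlap and 0 higher. Among all genes 11.9% were separated with knockout lower and 13.9% with knockout higher. The part of these array and marker measures in the lower Calr, Canx, Hspa5 and Dnajb9 values was not tested.

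The nerve comparison was not used to choose these genes and was tested. None of the 21 probe sets passed in knockout against wild type nerve (adjusted p = 1 for all 21 by limma), and 0 had an unadjusted p under 0.05. Over all probe sets the share that passed was 0%, with 1040 of 45037 at an unadjusted p under 0.05. The median difference of the 21 was -0.022, against 0.010 over all. Without overlap, 2 of the 21 were lower in knockout nerve and 0 were higher, where the shares over all probe sets were 3.67% and 3.58%. The first was Pdia3 1423423_at, which read 13.57, 13.69 and 13.53 in wild type and 13.52, 13.51 and 13.49 in knockout, a difference of -0.094 (SE 0.063). The second was the dim Pdia4 1450620_at, which read 4.33, 4.16 and 4.02 and then 4.02, 3.57 and 3.80, a difference of -0.38 (SE 0.16). Whether the genotype difference of Calr differs between the tissues was not tested, because Calr was chosen on one of the 2 differences.

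**Figure D4:**
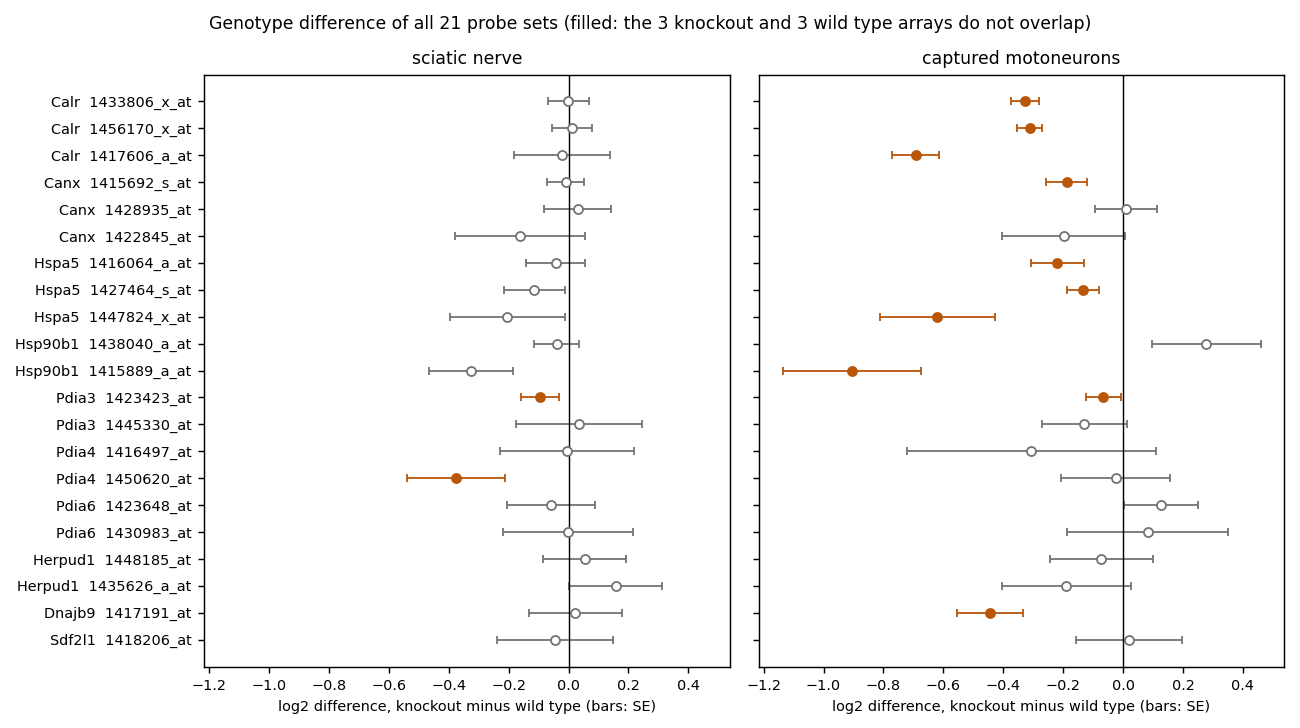
Log2 difference, knockout minus wild type, of all 21 probe sets in nerve (left) and motoneurons (right), with bars for the standard error and filled points where the 3 knockout and 3 wild type arrays do not overlap. In motoneurons 10 points are filled, all lower in knockout, and in nerve 2 are filled.

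Between tissues the deposited values put most chaperones lower in motoneurons than in nerve, with Sdf2l1 as the exception among the brightest probe sets, but for every member that read lower the direction turned once each array was centred on its median. The comparison was made within wild type and within knockout, which share no array, although both use motoneuron arrays on which Calr was chosen. In wild type 12 of the 21 probe sets passed as lower in motoneurons and 2 as higher, where 67.9% and 14.3% of all probe sets passed. In knockout 16 passed as lower and 2 as higher, where 67.5% and 15.2% of all did. The median difference of the 21 was -0.40 in wild type and -0.65 in knockout, against -1.09 and -1.04 over all probe sets. Quantile normalization of both tissues together moved the overall medians to 0.15 and 0.16 and the member medians to 0.20 and 0.045. Centring moved the overall medians to 0.67 and 0.74 and the member medians to 1.36 and 1.13. The share of all calls that were higher in motoneurons went from 17.4% to 54.6% and 69.0% in wild type, and from 18.4% to 54.7% and 69.5% in knockout. Member counts became 3 lower and 8 higher in wild type and 7 lower and 8 higher in knockout after quantile normalization. Of all probe sets, 32.9% then passed as lower and 39.6% as higher in wild type, and 33.6% and 40.5% in knockout. After centring the member counts were 0 lower with 19 higher, and 0 lower with 21 higher, where 24.7% and 54.9% of all probe sets passed each way in wild type and 24.8% and 56.6% in knockout. Without motoneuron replicate 3, 10 of the 21 probe sets passed as lower and 2 as higher in wild type. Of all 45037 probe sets 36737 then passed, 6557 of them as higher.

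Sdf2l1 was higher in motoneurons under all 3 scalings. It read 9.45, 8.86 and 8.92 in wild type nerve and 8.92, 9.16 and 9.02 in knockout nerve, below every motoneuron array. The difference was 0.74 (SE 0.23, adjusted p = 0.0175 by limma) in wild type and 0.80 (SE 0.15, adjusted p = 0.000872) in knockout. It grew to 1.97 (adjusted p = 0.000164) and 2.05 (adjusted p = 6.11e-06) after quantile normalization and to 2.50 and 2.58 after centring. The wild type call was lost without nerve replicate 2, nerve replicate 3 or motoneuron replicate 2, with adjusted p of 0.0555, 0.0574 and 0.0514, and the knockout call kept its side of the threshold with each array left out. The second probe set of Pdia3, 1445330_at, behaved likewise. It read 9.71, 9.60 and 9.68 in wild type nerve and 10.71, 10.62 and 10.99 in wild type motoneurons, a difference of 1.11 (SE 0.16, adjusted p = 0.00024), and of 0.94 (adjusted p = 0.00219) in knockout.

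The brighter Pdia3 probe set went the other way, so Pdia3 has no single direction between the tissues. By 1423423_at the difference was -0.81 (SE 0.073, adjusted p = 1.77e-05) in wild type and -0.78 (SE 0.055, adjusted p = 1.55e-06) in knockout, and it was -0.29 and -0.24 after quantile normalization but 0.95 and 0.99 after centring. Hsp90b1 1438040_a_at read 13.57, 13.54 and 13.57 in wild type nerve, and the difference was -1.48 (SE 0.16, adjusted p = 5.84e-05; -1.67 without motoneuron replicate 3), then -0.92 after quantile normalization and 0.28 after centring. Pdia6 1423648_at read 11.75, 12.02 and 11.51 in wild type nerve, with a difference of -1.41 (SE 0.17, adjusted p = 8.56e-05), then -0.61 and 0.35. These were the 3 probe sets that passed as lower in wild type under both the deposited scale and joint quantile normalization. The second probe sets of Hsp90b1 and Pdia6 did not pass as deposited in wild type. Hsp90b1 1415889_a_at differed by -0.33 (adjusted p = 0.179 by limma), by -0.074 without motoneuron replicate 3 and by 0.26 after quantile normalization. In knockout it passed as lower, at -0.92 (adjusted p = 0.000651). Pdia6 1430983_at differed by 0.19 (adjusted p = 0.541) in wild type and by 0.275 in knockout, then by 1.86 and 1.95 after quantile normalization.

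Calr 1433806_x_at differed between the tissues by -0.43 (SE 0.054, adjusted p = 0.000129) in wild type and by -0.76 (SE 0.064, adjusted p = 5.1e-06) in knockout, by -0.041 and -0.33 after quantile normalization and by 1.33 and 1.02 after centring. Canx 1415692_s_at differed by -0.60 (adjusted p = 6.24e-05) and -0.78 (adjusted p = 5.68e-06), then by -0.11 and -0.26, and by 1.16 and 0.997 after centring. For Hspa5 1416064_a_at the differences were -0.32 (adjusted p = 0.0315) and -0.50 (adjusted p = 8.41e-05), and turned to 0.16 and 0.021 already after quantile normalization. The wild type Hspa5 call was also lost without nerve replicate 1 or 2, or motoneuron replicate 1 or 3, with adjusted p between 0.0691 and 0.0997. Dnajb9 differed by -0.0058 (adjusted p = 0.976) in wild type and by -0.47 (adjusted p = 0.000655) in knockout, with 0.57 and 0.13 after quantile normalization. Herpud1 1448185_at differed by -0.52 (adjusted p = 0.0326) and -0.65 (adjusted p = 0.000748), and by 0.18 and 0.045 after quantile normalization. The wild type Herpud1 call was lost without nerve replicate 1 or 3, or motoneuron replicate 1 or 3, with adjusted p between 0.0573 and 0.104. Pdia4 1416497_at did not pass in either genotype, at -0.38 (adjusted p = 0.333) and -0.68 (adjusted p = 0.0743). Without motoneuron replicate 3, the wild type differences were 0.040 for Pdia4 (adjusted p = 0.843) and 0.12 for Dnajb9 (adjusted p = 0.529), both above 0 and neither passing.

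**Figure D5:**
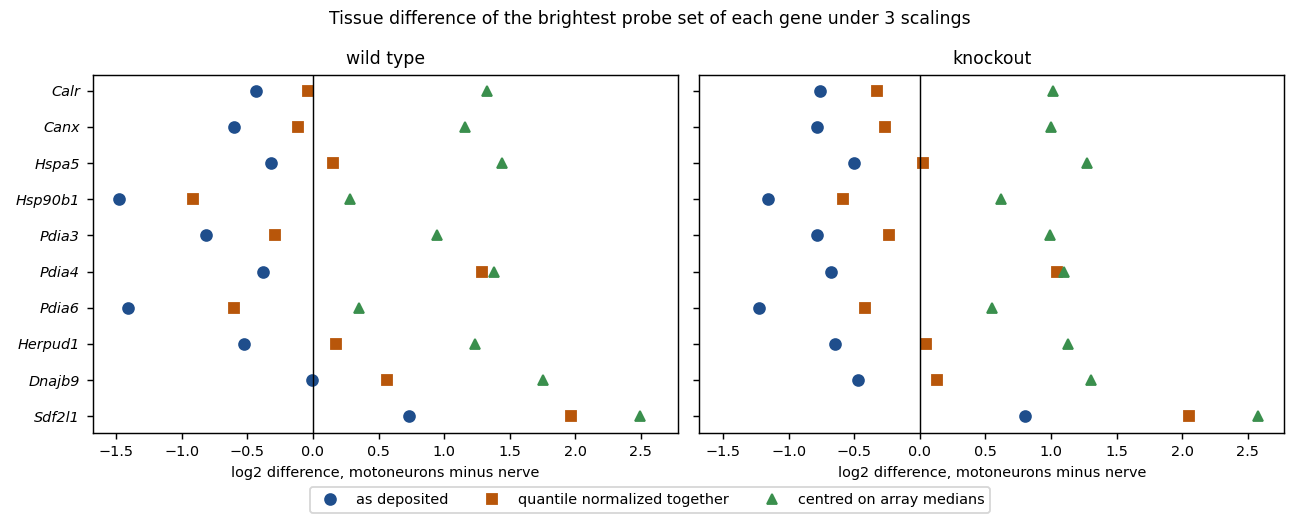
Log2 difference, motoneurons minus nerve, of the brightest probe set of each gene in wild type (left) and knockout (right), as deposited, after quantile normalization of both tissues together and after centring on array medians. Sdf2l1 is above 0 under all 3 scalings in both genotypes, and the other 9 genes are below 0 as deposited and above 0 after centring.

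The wider ER folding pathway was followed through 8 lists of other genes, each gene by its brightest probe set. In knockout against wild type, 0 genes of any list passed in nerve or in motoneurons by limma. The motoneuron result changed without wild type replicate 3, when 8.4% of all genes passed as lower and 5.62% as higher. The translocon list then had 4 genes lower and 2 higher, degradation 6 and 1, the lectin cycle 5 and 3, cochaperones 3 and 1, thiol oxidation 2 and 2, response sensors 3 and 0, collagen chaperones 0 and 2, and the calcium-binding list 2 and 0. Of the 16 genes picked by smallest p in this comparison, 11 then passed as lower and 1 as higher. They were picked on the same arrays, so nothing is read from this count. The values that follow are over all 6 arrays. Separation without overlap in motoneurons was 11.9% lower and 13.9% higher in knockout over all 18193 genes. Among 20 genes of the translocon and signal peptide processing, 8 were separated with knockout lower and 2 with knockout higher, with a median difference of -0.078. Spcs1, a subunit of signal peptidase, was at 13.38 in knockout and 13.72 in wild type (difference -0.35, SE 0.064, adjusted p = 0.108), and Sec62, a translocon partner, differed by -0.28 (adjusted p = 0.136). Among 23 genes of ER-associated degradation 8 were separated lower and 3 higher, with Herpud2, the paralog of Herpud1, at -0.76 (SE 0.18, adjusted p = 0.125) and Derl1 at -0.39 (adjusted p = 0.121).

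Of 16 genes of the calnexin and calreticulin lectin cycle, 5 were separated lower and 4 higher. Clgn, or calmegin, a calnexin relative known from testis, read 11.43 in knockout and 12.23 in wild type motoneurons (difference -0.80, SE 0.16, adjusted p = 0.114). Edem3, a mannosidase that marks misfolded glycoproteins, differed by -0.44 (adjusted p = 0.12). Of 14 cochaperones of the ER 3 were separated lower and 2 higher, with Dnajc3, an inhibitor of Perk and cochaperone of BiP, at -0.75 (SE 0.20, adjusted p = 0.14) and the Hsp70 relative Hspa13 at -0.49 (adjusted p = 0.12). Of 21 genes of thiol oxidation 5 were separated lower and 2 higher, with Tmx4, a membrane thiol reductase, at -0.28 (adjusted p = 0.108) and the oxidase Ero1b at 0.25 (adjusted p = 0.201).

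Among 17 sensors and transducers of the unfolded protein response, 4 were separated lower and 2 higher. Ern1, which encodes Ire1, differed by -0.77 (SE 0.22, adjusted p = 0.158) and Atf4, the transcription factor downstream of Perk, by 0.16 (SE 0.053, adjusted p = 0.206). The calcium-binding CREC proteins and retrieval receptors had 4 of 13 lower and 1 higher, with Rcn2 at -0.58 (adjusted p = 0.2). The prolyl isomerases and collagen chaperones had 1 of 18 in each direction, with Ppib, or cyclophilin B, higher in all knockout arrays by 0.27 (SE 0.072, adjusted p = 0.142). In nerve, Derl3, a derlin of ER-associated degradation, had the smallest unadjusted p of the genes named by the rule, at -0.54 (SE 0.20, unadjusted p = 0.0308 and adjusted p = 1 by limma).

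Between the tissues in wild type, 63.7% of all genes passed as lower in motoneurons and 17.7% as higher. The prolyl isomerases and collagen chaperones had 17 of 18 lower and 1 higher, with 15 lower and 1 higher after quantile normalization and 12 lower and 2 higher after centring. Over all genes 30.6% were lower and 43.1% higher after quantile normalization, and 20.0% and 61.2% after centring. Their median was -3.31, then -2.53 and -1.55. Serpinh1, the collagen chaperone Hsp47, differed by -7.50 (SE 0.18, adjusted p = 6.16e-08) and P3h1, a prolyl hydroxylase of collagen, by -5.91, both lower under all 3 scalings. The CREC proteins and receptors had 12 of 13 lower and 0 higher, then 10 lower and 1 higher, and 7 lower and 5 higher, with the KDEL receptor gene Kdelr3 at -9.50 (SE 0.20, adjusted p = 5.97e-08). Markers of several other cell types were also lower in motoneurons in 8 of 8 measured genes each. Their median differences were -7.80 for fibroblasts, -6.21 for skeletal muscle, -5.26 for microglia and macrophages, -4.94 for endothelium and mural cells and -4.59 for Schwann cells, and their part in the difference was not tested.

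Clgn and Calr3, a calreticulin relative, were the 2 genes of the lectin cycle list that passed as higher in motoneurons, where Calr and Canx were lower as deposited but higher after centring. Calr3 differed by 1.80 (SE 0.38, adjusted p = 0.00267), and by 3.23 and 3.56 under the other scalings. Clgn read 12.23 on average in wild type motoneurons and 6.72 in wild type nerve, a difference of 5.52 (SE 0.21, adjusted p = 2.46e-07), and of 6.75 and 7.28 under the other scalings. Wfs1, the wolframin gene of the ER membrane, was also higher in motoneurons by 1.92 (SE 0.12, adjusted p = 2.25e-06), and Creb3l1, an Atf6-like factor of matrix-secreting cells, was lower, with a difference of -5.55 (SE 0.21, adjusted p = 2.22e-07), both in the same direction under all 3 scalings. The lists for thiol oxidation (16 of 21 lower), cochaperones (12 of 14), lectin cycle (12 of 16), ER-associated degradation (13 of 23), response sensors (12 of 17) and translocon (17 of 20) had negative medians as deposited, from -0.45 to -1.29, and positive ones after centring, from 0.47 to 1.31.

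Outside the members, the elements described above were found in some of these genes. Over all promoters the shares were 0.119% for ERSE, 0.0365% for ERSE-II and 0.676% for the UPRE. The lists were made by function, so these matches are a description. ERSE was present in the promoters of Ero1b and Creld2 among 19 thiol oxidation genes with a promoter, in Dnajc3 among 10 cochaperones, and in Syvn1 and Derl3 among 16 genes of ER-associated degradation. ERSE-II was present in Dnajb11 among 10 cochaperones and in Nucb1 among 11 genes of the calcium-binding list. The UPRE was present in Txndc5 and Txndc11 of the thiol oxidation list, Dnajc25 of the cochaperones, Ube2j1 and Vcp of ER-associated degradation, and Kdelr3 of the calcium-binding list. The lectin cycle, response sensor, translocon and collagen chaperone lists had no match.

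The genes whose pattern was most like that of Calr were found by subtracting each tissue mean from the 12 values and correlating over the 12 arrays, among 16730 brighter probe sets of 10134 genes. They were Spred1 (r = 0.98), Morf4l2 (r = 0.97), Mtmr6 (r = 0.96), Grsf1 (r = 0.96) and Hnrnpf (r = 0.95), and 84 probe sets reached 0.9. The arrays share the genotype difference in motoneurons on which Calr was chosen, so these values are a description. By the probe sets given, all 5 genes were lower in knockout motoneurons, with differences of -0.25 to -0.69, and differed by -0.013 to -0.067 in nerve. Among the members Canx was most like Calr (r = 0.82), followed by Dnajb9 (r = 0.70) and Hspa5 (r = 0.63). Pdia4 (r = 0.41), Pdia3 (r = 0.40), Herpud1 (r = 0.097) and Sdf2l1 (r = -0.083) followed it less, and Pdia6 (r = -0.24) and Hsp90b1 by its brightest probe set (r = -0.34) ran against it. By brightest probe set, members with an ERSE were at both ends of this order, with Canx at 0.82 and Hsp90b1 at -0.34. Hsp90b1 1415889_a_at, which was lower in every knockout motoneuron array, was not placed in the order. Whether the element goes with the pattern was not tested.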

How the data were processed

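The deposited values are log2 expression levels per probe set, which the authors made with Affymetrix Expression Console 1.1, per the submitters' processing notes. How probes were summarized and background was corrected is not given in the sources used here. Arrays of a tissue had nearly the same distribution and the tissues did not, so the tissues were read as normalized separately. Of 45101 probe sets, 64 controls were left out. Annotation gave 34945 probe sets 1 symbol, 932 several and 9160 none. For 34741 of the probe sets with 1 symbol the current symbol was taken by gene identifier from RefSeq GRCm38.p6. Groups came from the sample labels.

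Fits used limma 3.58.1 (R 4.3.3; lmFit, eBayes with a mean trend, two-sided) on the 6 arrays of each comparison, with Benjamini-Hochberg adjustment over 45037 probe sets at 0.05, and the code was tested on simulated data. A group is called separated where none of its arrays overlaps the other group. For lists, a gene is represented by the probe set with the highest mean. Exact permutation of 3 against 3 arrays cannot give a p below 0.1 and was not used. The number of arrays limits the precision.

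The members, lists and named genes were chosen with earlier results of these data known. Every member probe set is covered in the counts and in the plot of genotype differences. Per list, the rule took the 2 genes with the smallest unadjusted p in each genotype comparison. It also took the 2 passing genes with the largest difference each way between wild type tissues. Examples of the genes so chosen are given. Alternatives covered scaling, filtering, the variance model, array weights, all 12 arrays in 1 fit, the replicate number, Xist, probe set averaging and each array left out. Plots were made in Python 3.11.15 using matplotlib 3.10.9. Protein sequences were not used here.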

Additional observations from a re-analysis of the deposited data

How the results depend on the processing

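No array, scaling or model choice that was tried brought a member past the threshold in the nerve genotype comparison. The motoneuron genotype count of separated probe sets, 10, was 8 after quantile normalization and ranged from 10 to 14 with each array left out. Leaving an array out cannot end a separation, so that count could only stay or rise. Without wild type replicate 3 the shares over all probe sets rose as well, to 18.3% lower and 23.1% higher. With the probe sets of a gene averaged, 4 of 10 genes were separated, against 5 by brightest probe set. Averaging the probe sets of a gene gave -0.44 for Calr and -0.31 for Hsp90b1 in that comparison. Over all probe sets its 0 calls became 61 with dim probe sets left out, 828 with 12 arrays fitted jointly, 2929 with array weights and 4646 without wild type replicate 3. In nerve 1 probe set was called with all 12 arrays in 1 fit.

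Tissue calls depended on scaling. The count lower in motoneurons fell from 12 to 3 (quantile) and 0 (centred) in wild type, and from 16 to 7 and 0 in knockout. The count higher went from 2 to 8 and 19 in wild type, with 1 under array weights, and from 2 to 8 and 21 in knockout. With each array left out the wild type counts were 11 to 13 passing, 9 to 12 lower and 1 to 2 higher, and the knockout counts 17 to 19 passing and 15 to 17 lower. After centring, the wild type differences turned to 1.33 (Calr), 1.16 (Canx), 1.44 (Hspa5), 0.28 (Hsp90b1), 0.95 (Pdia3), 1.38 (Pdia4), 0.35 (Pdia6), 1.24 (Herpud1) and 1.75 (Dnajb9), and the knockout ones, in the same order, to 1.02, 0.997, 1.28, 0.62, 0.99, 1.096, 0.55, 1.13 and 1.30. Quantile normalization turned Hspa5, Pdia4, Herpud1 and Dnajb9 to 0.16, 1.29, 0.18 and 0.57 in wild type and to 0.021, 1.05, 0.045 and 0.13 in knockout. Averaging probe sets turned Pdia3 to 0.15 and 0.080, since its probe sets differ in direction. Array weights ended the wild type Sdf2l1 call (0.52, adjusted p = 0.0583 by limma).

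The labels number the replicates and do not say whether same-numbered arrays were handled together. After subtracting group means, same-numbered arrays correlated by 0.026 to 0.31 in nerve and by -0.079 to 0.090 in the other comparisons. What the numbers stand for was not settled by these values. With the replicate block, 14 probe sets passed in wild type, 17 in knockout and 0 in nerve, 10 were separated in motoneurons, and the wild type Herpud1 call was lost (-0.52, adjusted p = 0.0511 by limma).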
